A study of Mus musculus with 4 samples.

Results

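A set of 10 genes, repressors of transcription and parts of the circadian clock, was followed in E14 mouse embryonic stem cells 2 hours after ATRA, all-trans retinoic acid, the ligand of the retinoic acid receptors. They are Bhlhe40, Bhlhe41, Hes1, Hey1, Per1, Per2, Per3, Cry1, Cry2 and Dbp, and they were read by all probes that the platform annotation assigns to these symbols, which came to 16 of the 45281 probes on the array; the annotation used here named 19057 genes in all. The ATRA group and the DMSO group, which received the vehicle for the same 2 hours, had 2 single-colour Illumina bead arrays each. All cells were of 1 established line and grew in medium with 15% fetal bovine serum and LIF at 1500 U/ml. The source name and series design call the DMSO arrays untreated, while the treatment field names the vehicle, which was followed here. No source used here gives the concentration of ATRA.

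BHLHE40 and BHLHE41 (also called DEC1 and DEC2) are basic helix-loop-helix repressors that bind E-boxes and oppose the clock activators CLOCK and BMAL1; BHLHE40 was isolated, among other ways, as a transcript induced by retinoic acid in embryonal carcinoma cells. PER and CRY proteins form the complex that inhibits CLOCK and BMAL1, and DBP is a PAR bZIP activator whose own gene is driven by that pair. HES1 and HEY1 are repressors best known as targets of Notch signalling, and HES1 levels oscillate in mouse embryonic stem cells. Undifferentiated embryonic stem cells are known for lacking the daily rhythm in clock transcripts that appears once they differentiate.

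Clock and HES proteins act through short elements in promoters. Promoter letters are shown for the 4 detected members that RefSeq's promoter table (build GRCm38.p6) holds. The table matched 6 of the 10 members, with 7 windows because Per1 has 2 starts, 1203 bases apart. Bhlhe40, Hes1, Hey1 and Per2 had no window, so their promoters were not searched. Each sequence is the 250 bases before the start, 5′ to 3′ on the gene's strand, and capitals mark the E-box CACGTG, the HES class C site CACGNG, which includes the E-box, and the D-box TTANGTAA bound by DBP and its relatives. Both strands were searched.
Per1, first start, chr11:69098699-69098948, plus strand: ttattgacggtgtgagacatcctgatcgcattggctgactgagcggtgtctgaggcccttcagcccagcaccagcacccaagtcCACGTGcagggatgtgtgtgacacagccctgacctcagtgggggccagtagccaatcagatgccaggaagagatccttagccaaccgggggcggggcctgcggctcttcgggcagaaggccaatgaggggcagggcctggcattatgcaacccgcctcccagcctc
Per1, second start, chr11:69099902-69100151, plus strand: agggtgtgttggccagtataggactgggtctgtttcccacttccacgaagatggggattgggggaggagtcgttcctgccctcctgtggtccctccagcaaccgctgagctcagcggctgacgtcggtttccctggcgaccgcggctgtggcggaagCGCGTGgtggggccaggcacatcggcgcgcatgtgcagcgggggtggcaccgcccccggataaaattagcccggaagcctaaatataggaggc
Per3, chr4:151044666-151044915, minus strand: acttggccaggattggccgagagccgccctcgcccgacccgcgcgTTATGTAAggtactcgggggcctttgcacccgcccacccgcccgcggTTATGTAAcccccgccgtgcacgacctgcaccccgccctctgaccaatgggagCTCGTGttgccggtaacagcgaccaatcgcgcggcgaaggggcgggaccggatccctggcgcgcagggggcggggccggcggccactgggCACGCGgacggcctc
Cry2, chr2:92434070-92434319, minus strand: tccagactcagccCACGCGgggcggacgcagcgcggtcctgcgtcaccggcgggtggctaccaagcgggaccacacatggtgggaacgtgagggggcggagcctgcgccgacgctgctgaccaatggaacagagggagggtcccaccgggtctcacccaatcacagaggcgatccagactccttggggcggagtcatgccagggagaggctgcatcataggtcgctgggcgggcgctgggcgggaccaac
Dbp, chr7:45704997-45705246, plus strand: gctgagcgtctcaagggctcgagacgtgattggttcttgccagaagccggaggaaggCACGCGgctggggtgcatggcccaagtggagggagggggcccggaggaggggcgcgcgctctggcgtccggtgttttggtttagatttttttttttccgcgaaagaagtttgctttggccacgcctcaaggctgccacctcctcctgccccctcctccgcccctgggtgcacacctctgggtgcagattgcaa
The E-box stood 166 bases before the first Per1 start, and it also occurred once in the window of Bhlhe41 and once in that of Cry1, both undetected genes. Of all 32851 windows in the table, 6.02% held an E-box, and 23.5% held a class C site, which occurred in the windows of all 6 matched members. Per3 alone among the 6 held D-boxes, 2 copies at 205 and 158 bases before its start, against 2.06% of all windows with at least 1. Direct repeats of AGGTCA with 5 or with 2 bases between the copies, forms of the retinoic acid response element, were found in 0 of the 7 windows and in 0.00913% of all windows for each spacing. With so rare a match, 0 of 7 says little, and it does not cover Bhlhe40. The windows of Per1 at its first start and of Per3 also held the N-box CACNAG, as did 36.7% of all windows, the Per3 match being the letters of one of its class C sites. The half-site AGGTCA occurred in the same Per1 window and in 14.0% of all, while GGGTCA and the cyclic AMP response element TGACGTCA occurred in 0 of the 7 windows, against 11.6% and 1.55% of all. A match is a run of letters, not a bound site, and the arrays did not measure binding.

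The deposited intensities had already been equalised between arrays. Their limit of detection (detection p under 0.05) lay at 104.4 to 106.3, and 40.1% to 42.3% of probes were detected on each array. As a check of the treatment, Cyp26a1, which encodes a retinoic acid degrading enzyme and is a direct target of the receptors, had intensities of 204.5 and 191.4 on the ATRA arrays, against 104.6 and 111.1 on the DMSO arrays (limma adjusted p = 2.59e-09). All 10 embryonic stem cell markers on the list were detected, 5 higher and 5 lower with ATRA. Their summed intensities were 69853 and 70380 on the ATRA arrays and 71185 and 71750 on the DMSO arrays. The Dppa5a probes made up much of these sums, with 20281.5 and 19828.1 on ATRA replicate 1. Of the 10, 2 fell past the threshold, against 0.363% of all genes tested. They were Zfp42 (fold 0.758, limma adjusted p = 0.00406) and, by its brighter probe, Sox2 (fold 0.763, adjusted p = 0.019). The dimmer Sox2 probe, also detected on all 4 arrays, had overlapping groups and did not pass (fold 0.853, limma adjusted p = 0.506). Of the markers of other cells, Col1a2, Postn, Lum and Dcn of fibroblasts, Sox17 and Pdgfra of primitive endoderm and Pax6, Neurog2 and Dcx of early neural cells were detected on 0 of the 4 arrays. Others were measured: Col1a1, Col3a1 and Thy1 of fibroblasts, Dab2 and Sox7 of primitive endoderm, and Nes and Tubb3 of early neural cells, of which all but Tubb3 were detected on all 4 arrays by their brightest probe. Nes, for instance, gave 159.5 and 177.9 with ATRA, against 159.0 and 150.5 with DMSO, and Dab2 136.1 and 146.5 with ATRA, against 161.0 and 147.6 with DMSO. None of these 3 lists had a gene past the threshold (0 by limma), and none of their brightest probes had an unadjusted p under 0.05 (0); a dimmer Dab2 probe, lower with ATRA, had 0.0362. Tubb3 was detected on 0 ATRA and 2 DMSO arrays, and Gata4 of primitive endoderm on 0 ATRA arrays and 1 DMSO array. The summed fibroblast intensities were 1528 and 1489 with ATRA and 1500 and 1505 with DMSO. The primitive endoderm sums were 1271 and 1267 against 1305 and 1280, and the early neural sums 1149 and 1173 against 1160 and 1127. Each sum takes in every probe of its list, undetected ones included, with no background removed. They hold much background, so near-equal sums do not show that these markers were unchanged. The part of these levels in the results below was not tested. In a bulk array, a change in the share of cells that express a gene and a change per cell cannot be told apart.

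The 16 probes divided cleanly by detection. Of these, 9 probes, covering 8 genes, were detected on all 4 arrays, and the other 7 probes on 0 arrays, so that none entered the test through 1 group alone. Bhlhe41 and Cry1 had a single probe each and were undetected. The Bhlhe41 probe gave 86.5 and 87.6 with ATRA, against 87.8 and 84.5 with DMSO, and the Cry1 probe 84.9 and 82.9 with ATRA, against 84.6 and 85.7 with DMSO. Both lay below the detection limit on every array, which bounds the signal of these probes and does not show that the transcripts were absent. The undetected second probe of Cry2 (ILMN_1256483) came close to the limit at 104.5 and 97.6 with ATRA, against 101.5 and 102.2 with DMSO. Another 2 probes of Per2 and 1 each of Per1 and Per3 stayed below it as well. With no filter on dim probes, the 7 undetected probes had adjusted p-values from 0.716 to 0.989.

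**Figure D1:**
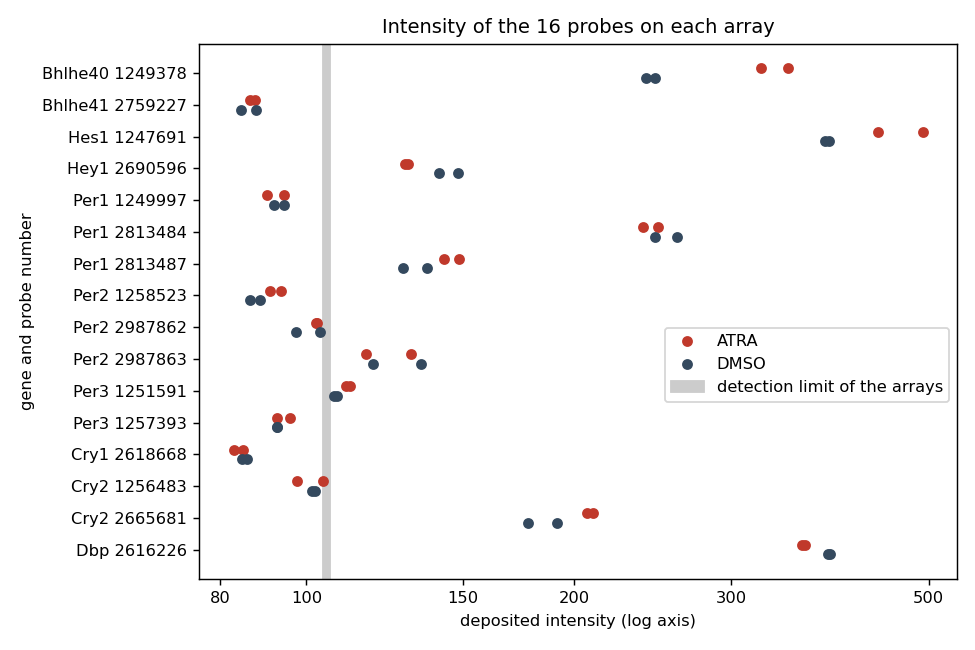
Deposited intensity of each of the 16 probes (log axis) on the 2 ATRA arrays (red) and the 2 DMSO arrays (dark), with the arrays' detection limits as a grey band. The 9 detected probes lie right of the band on all arrays and the other 7 lie at or left of it, and among the 9 the Bhlhe40 probe has the widest gap between groups.

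Bhlhe40 was the member that passed the test: it rose with ATRA. Its probe (ILMN_1249378) had intensities of 324.2 and 347.5 on the ATRA arrays, against 240.5 and 246.2 on the DMSO arrays. Both ATRA arrays lay above both DMSO arrays, and the gap between groups was wider than the gap between replicates. After background correction the mean log2 intensity was 8.01 ± 0.09 with ATRA and 7.37 ± 0.04 with DMSO (SD, n = 2 each), a 1.56-fold difference with a 95% interval of 1.35 to 1.80 (limma adjusted p = 0.000478). Its change ranked 104 among the 19112 kept probes, and 99.4% of them had a smaller absolute change. The fold on the deposited intensities, without background correction, was 1.38. Bhlhe40 passed under 13 of 14 alternative settings, with changes of 0.46 to 0.70 on the log2 scale. The exception was the variance model without an intensity trend, under which its adjusted p was 0.0645.

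Among the 9 detected probes, 1 passed the test, and it rose. Over all kept probes 1.58% passed, 1.26% by rising and 0.324% by falling. Of the 9, 5 had an unadjusted p under 0.05, against 11.6% of all kept probes. The groups did not overlap on 7 of the 9, with ATRA above on 5 and below on 2, against 40.8% of all kept probes, 19.6% above and 21.2% below. By brightest probe, the ATRA mean was above the DMSO mean for 4 of the 8 genes, as it was for 48.7% of all 10194 genes tested. The 8 changes had a median of 0.03 (log2), beside -0.004 over those 10194 genes. The members were chosen with earlier results known, so these shares carry no test.

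**Figure D2:**
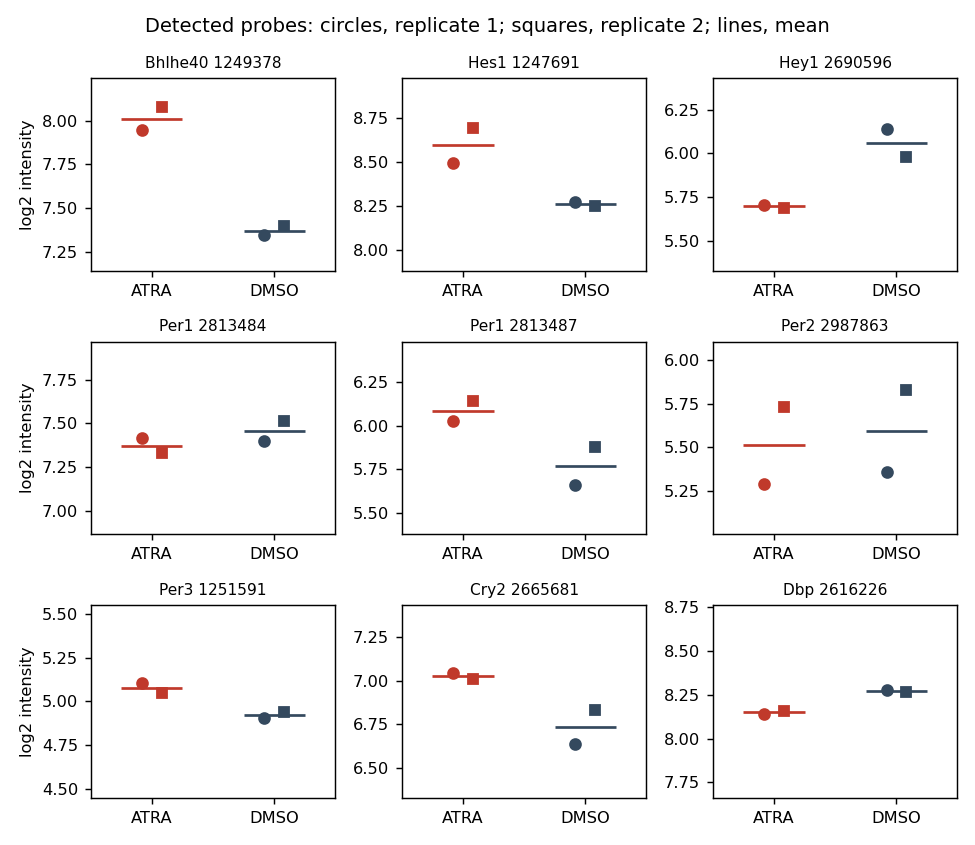
Background-corrected log2 intensity of the 9 detected probes on each array, ATRA (red) left of DMSO (dark), with circles for replicate 1, squares for replicate 2 and lines for group means; every panel spans the same height. The groups do not overlap for Bhlhe40, Hes1, Hey1, Cry2, Dbp, Per3 and Per1 probe ILMN_2813487. For Per2 the 2 replicates of each group differ by far more than the group means.

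Hes1 and Hey1, the other detected members of the helix-loop-helix class, which share the DNA-binding fold of BHLHE40, did not pass. Bhlhe41, of the same class, was undetected and did not enter this test. Hes1 had intensities of 438.7 and 492.6 on the ATRA arrays, against 386.6 and 382.0 on the DMSO arrays. The DMSO arrays were nearly equal, and both ATRA arrays lay above them, replicate 2 more than replicate 1. On the log2 scale Hes1 averaged 8.60 ± 0.14 with ATRA and 8.26 ± 0.02 with DMSO (SD, n = 2 each), a fold of 1.26 (95% interval 1.10 to 1.45) that missed the threshold by limma (adjusted p = 0.0895). The Hes1 change was 0.336 on the log2 scale with all arrays. It was 0.347 without DMSO replicate 1, 0.325 without DMSO replicate 2, 0.436 without ATRA replicate 1 and 0.236 without ATRA replicate 2. Among the 14 alternatives, Hes1 passed with the replicate number as a block (adjusted p = 0.0294) and without either DMSO array. It passed in none of the others, including those without either ATRA array.

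Hey1, a HES relative active in vessels and heart, had the lowest change of the 9 probes. Its intensities were 129.9 and 129.2 on the ATRA arrays, against 148.1 and 140.9 on the DMSO arrays. The log2 means were 5.70 ± 0.02 with ATRA and 6.06 ± 0.11 with DMSO (SD, n = 2 each). The groups did not overlap, ATRA being below, and the change of -0.36 (SE 0.13) did not pass (limma adjusted p = 0.235). Hey1 is a dim probe, brighter on average than 36.3% of kept probes, and without background correction its change was -0.16. Whether the changes of Hes1 and Hey1 differ was not tested.

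The period genes encode the PER proteins, which act in a complex with CRY and are marked for decay by casein kinases. Per1 was read by 2 detected probes that pointed opposite ways. Probe ILMN_2813484 gave 248.3 and 238.7 on the ATRA arrays, against 246.5 and 260.5 on the DMSO arrays, with groups that overlapped. Probe ILMN_2813487 gave 142.9 and 148.3 on the ATRA arrays, against 128.3 and 136.6 on the DMSO arrays, with both ATRA arrays above. The changes were -0.08 (95% interval -0.30 to 0.13) and 0.31 (95% interval 0.03 to 0.59) on the log2 scale, and neither passed by limma (adjusted p = 0.839 and 0.35). Both probes are annotated to the same RefSeq transcript, NM_011065, and the sources used here do not tie either to 1 of the 2 starts shown above. The 2 intervals share values, and the difference between the probes was not tested.

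Per2, a period gene whose loss disrupts the daily rhythm of mice, varied more between replicates than between treatments. Its detected probe (ILMN_2987863) had intensities of 116.8 and 130.9 on the ATRA arrays, against 118.8 and 134.4 on the DMSO arrays. Replicate 2 was the higher array in both groups. The SD of the log2 values was 0.31 with ATRA and 0.33 with DMSO, above 97.9% and 96.5% of all kept probes in those groups. The change of -0.08 (95% interval -0.44 to 0.27) did not pass (limma adjusted p = 0.918), and its sign turned when ATRA replicate 1 or DMSO replicate 2 was left out.

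Per3, the member of the family least needed for rhythm in mice, lay just above the detection limit. Its detected probe (ILMN_1251591) gave 112.0 and 110.7 on the ATRA arrays, against 107.5 and 108.2 on the DMSO arrays. ATRA was above on both arrays, by a few intensity units. The fold was 1.11 with a 95% interval of 0.874 to 1.41 and did not pass (limma adjusted p = 0.813). At this brightness, where only 12.5% of kept probes were dimmer, the interval includes differences in either direction.

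Cry2, a cryptochrome that represses CLOCK and BMAL1, had intensities of 209.7 and 206.4 on the ATRA arrays, against 177.2 and 191.4 on the DMSO arrays by its detected probe (ILMN_2665681). Both ATRA arrays were above both DMSO arrays. The log2 means were 7.03 ± 0.03 with ATRA and 6.73 ± 0.14 with DMSO (SD, n = 2 each), a fold of 1.22 (95% interval 1.04 to 1.44) that missed the threshold (limma adjusted p = 0.275). It lay past it only without DMSO replicate 2 (adjusted p = 0.042).

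Dbp, the output gene of the loop, gave the most even readings. Its intensities were 360.3 and 363.3 on the ATRA arrays, against 387.6 and 385.8 on the DMSO arrays, and its log2 SD of 0.01 in both groups was above 8.41% of kept probes with ATRA and 3.42% with DMSO. The groups did not overlap, ATRA being below. The change was -0.12 (95% interval -0.31 to 0.07) and did not pass (limma adjusted p = 0.692). The SE of 0.09 in that fit draws also on the spread of probes of like intensity.

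**Figure D3:**
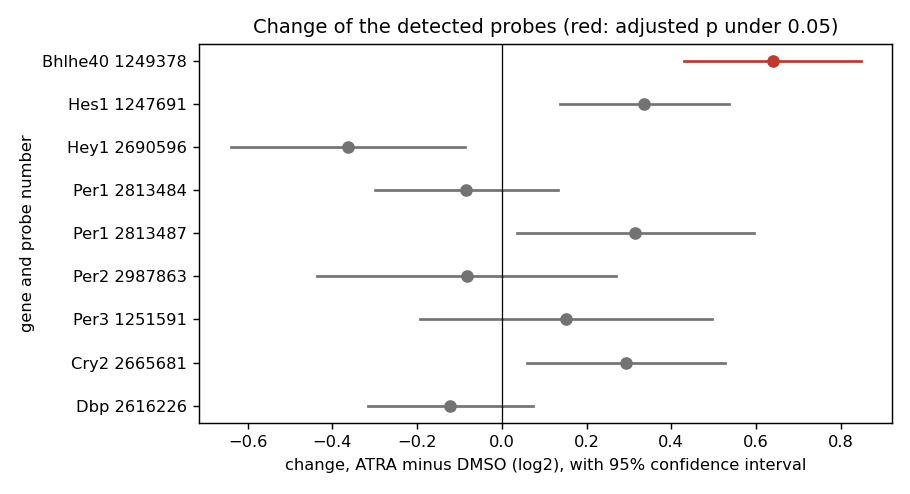
Change of the 9 detected probes, ATRA minus DMSO on the log2 scale, with 95% confidence intervals from limma; the red probe passed the threshold. The Bhlhe40 interval runs from 0.43 to 0.85, and the intervals of Per1 probe ILMN_2813484, Per2, Per3 and Dbp cross 0.

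**Figure D4:**
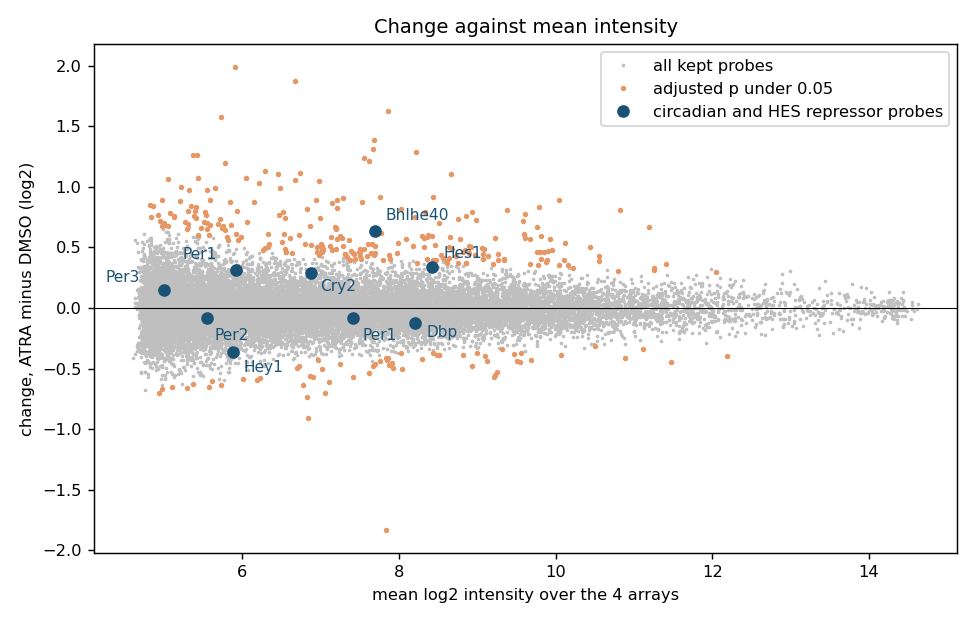
Change against mean log2 intensity for the 19112 kept probes (grey), the 302 that passed (orange) and the 9 detected probes of the clock and HES repressors (blue, named). Bhlhe40 lies among the passing probes, Hes1 at their lower edge, and the other 7 within the grey band.

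The 5 genes whose pattern over the 4 arrays was nearest to that of Bhlhe40 were Robo4, Nacc2, Ttbk1, Nol4l and Csrnp1, by Euclidean distance between mean-centred log2 values (0.039 to 0.071) among 10194 genes. Robo4, an endothelial receptor of the roundabout family, was 1.52-fold higher with ATRA (adjusted p = 0.00043). Nacc2, a BTB domain repressor, was 1.52-fold higher (adjusted p = 0.0037), and the tau tubulin kinase gene Ttbk1 was 1.52-fold higher (adjusted p = 0.0272). Nol4l and Csrnp1, the second a nuclear factor rich in cysteine and serine, were both higher by 0.58 on the log2 scale (limma adjusted p = 0.0153 and 0.00281). All 5 missed the threshold without the intensity trend, and Robo4 passed in each of its other 13 alternatives. Without ATRA replicate 2, Nacc2, Csrnp1, Nol4l and Ttbk1 missed it too (adjusted p = 0.0982, 0.0782, 0.226 and 0.473). Without ATRA replicate 1, Nol4l and Ttbk1 did (adjusted p = 0.117 and 0.0947), as did Ttbk1 with no filter on dim probes (adjusted p = 0.0928). With 4 arrays, likeness reflects mainly the size of the change and the spread of each array.

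Around these members, 50 genes of the clock loop, the HES family and their corepressors were listed. Of the 50, 44 had a probe in the annotation used here, and 29 were measured, with a probe kept for the test. Of these 29, 2 rose, Csnk1e and Tle6, and 0 fell; of all genes tested, 1.82% passed, 1.46% by rising. An unadjusted p under 0.05 was reached by 10 of the 29, against 12.4% of all genes tested. By direction 15 were higher and 14 lower, beside 48.7% higher among all genes, with a median change of 0.05.

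Csnk1e, which encodes a casein kinase (the epsilon form) that phosphorylates PER proteins, rose by both of its probes. The brighter probe had intensities of 1000.5 and 1004.3 on the ATRA arrays, against 793.2 and 802.1 on the DMSO arrays, and the other 615.2 and 599.8 with ATRA, against 507.0 and 421.8 with DMSO. The folds were 1.28 and 1.38 (limma adjusted p = 0.0209 and 0.0127). Neither passed without the intensity trend (adjusted p = 0.24 and 0.239) or without ATRA replicate 1 (0.264 and 0.124), and the brighter missed it without ATRA replicate 2 (0.264). Of the 13 measured PER and CRY kinases, ligases and partners, 1 passed, 8 were higher and 5 lower, with a median of 0.16; Usp2, a deubiquitinase of clock proteins, was at 0.34 (adjusted p = 0.259), and at 0.51 without ATRA replicate 1 and 0.17 without ATRA replicate 2.

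The corepressor list had 9 measured genes, of which Tle6 passed, with a list median of -0.03. Tle6, a divergent Groucho relative known as part of the maternal complex of the egg and early embryo, had intensities of 274.8 and 275.3 on the ATRA arrays, against 188.5 and 190.2 on the DMSO arrays. The replicates were nearly equal within each group, and the fold was 1.77 (95% interval 1.52 to 2.05, limma adjusted p = 2.38e-05); it passed under all 14 alternatives. Tle4, a Groucho corepressor recruited by HES proteins, was lower with ATRA by its 3 detected probes, with changes of -0.30, -0.41 and -0.27 that did not pass (adjusted p = 0.0594, 0.0581 and 0.387). The brightest of them passed without DMSO replicate 1 (adjusted p = 0.0137); without the other arrays in turn its adjusted p was 0.0503 to 0.611.

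The clock activators were partly detected. Clock, the histone acetyltransferase partner of BMAL1, was at 0.28 (SE 0.11, adjusted p = 0.278) by its brightest probe. A dimmer Clock probe was at 0.17 with overlapping groups (adjusted p = 0.778), and another was undetected. Arntl, the gene for BMAL1, was at 0.16 (adjusted p = 0.642), while Npas2 and Arntl2 were undetected on every array. The value of the brightest Clock probe moved with single arrays: it was 0.43 without DMSO replicate 2, 0.13 without DMSO replicate 1 and 0.20 without ATRA replicate 2. In the second loop of the clock, Nr1d1, which encodes the heme receptor and repressor REV-ERB alpha, was at -0.42 (SE 0.17, adjusted p = 0.303), near background with 1 of 2 ATRA arrays and 2 of 2 DMSO arrays detected. Nr1d2, its relative, was at -0.02, and 0 of the 3 measured genes of that list passed. Tef, a PAR bZIP relative of DBP, was at 0.30 (adjusted p = 0.236).

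Of the 8 other HES and HEY genes, 7 were undetected on every array, among them Hes5, a Notch target of neural progenitors. Hes6, which antagonises HES1, was detected by 3 probes. Its changes were -0.17, -0.10 and -0.43 on the log2 scale, and none passed (0 of 3, limma adjusted p = 0.57, 0.834 and 0.157).

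**Figure D5:**
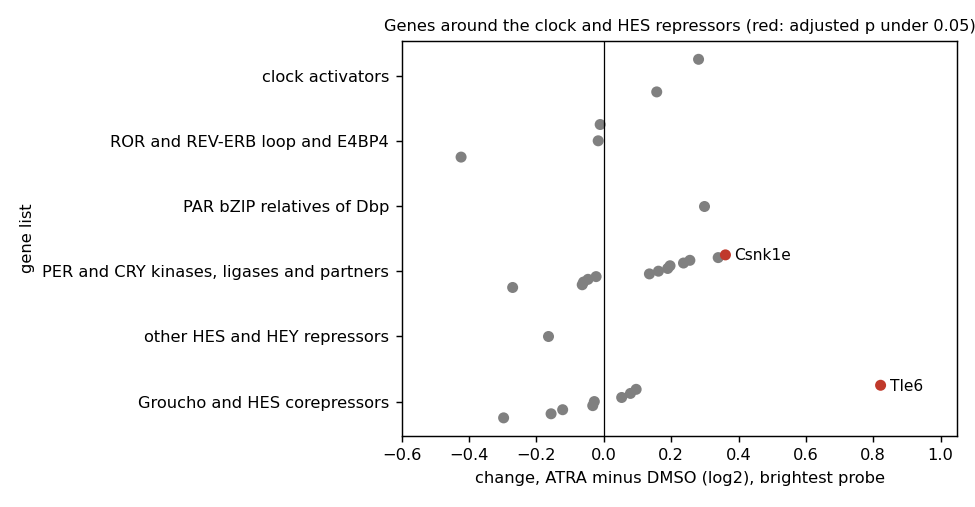
Change with ATRA (ATRA minus DMSO, log2, brightest probe) of the 29 measured genes of the clock, HES and corepressor lists, 1 point per gene, with genes past the threshold in red and named. Csnk1e lies at 0.36 and Tle6 at 0.82, and the other points lie on both sides of 0.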

How the data were processed

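RNA of 4 samples (ATRA and DMSO, 2 each) was hybridised to Cy3 bead arrays. Per the submitters' processing notes the authors used GenomeStudio; no version or further step is given in the sources used here. The authors deposited linear intensity values, each with a detection p-value, per the file headers. Once sorted, the 4 arrays matched to within 0.228, so the intensities had been quantile normalized, which hides any shift shared by most probes. The series matrix that the authors deposited equals these intensities less 93.5, with medians of 6.22 to 6.24; it is linear and not centred.

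With limma 3.58.1 in R 4.3.3, neqc applied normexp (background inferred through the detection p-values), an offset of 16, quantile normalization and log2. Folds were taken after adding this offset, on the log2(value + offset) scale, and understate the change of dim probes. Probes with detection p under 0.05 on at least 2 arrays were kept (19112). The groups were compared with lmFit and trended eBayes (variance following intensity), adjusted by Benjamini-Hochberg over all kept probes (threshold 0.05). All adjusted p-values are from this test unless stated, and intervals are 95%. The fit was tested on simulated data. No label says that the replicates were separate cultures, so p-values cover only the spread among these 4 samples, possibly technical, and 4 arrays limit the precision.

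Probes were named from the platform annotation (34885 with 1 symbol, 18 with several, 10378 unnamed here); 34807 matched a RefSeq table of GRCm38.p6 by Entrez identifier and 0 changed symbol. A gene with several kept probes was given by the brightest. Some genes of the lists are not reported here. Besides the members, genes past the threshold and the 2 largest changes in each list were named, and the 5 genes most like Bhlhe40. The members and lists were chosen with earlier results of these data known.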

Additional observations from a re-analysis of the deposited data

How the results depend on the processing

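Of 125 repeats of the 9 detected probes' changes under the alternatives, 118 kept their direction and side of the threshold. Bhlhe40 did not pass without the intensity trend, Hes1 passed in 3 settings and Cry2 in 1. Without 1 array the Per2 change ran from -0.315 to 0.15: it reversed to 0.14 without ATRA replicate 1 and 0.15 without DMSO replicate 2 (adjusted p = 0.997 and 0.733). That of Nr1d2 ran from -0.0799 to 0.0463 and reversed without the same 2 arrays. Without the intensity trend, 74 of 19112 probes passed in place of 302, with 0 of the 9 member probes and 1 of the context genes (Tle6); the cause was not tested. With 1 array left out, probes past the threshold numbered 133 to 956, member probes 1 to 3 (Bhlhe40, with Hes1 without either DMSO array and Cry2 without DMSO replicate 2) and context genes 1 to 6; the lone array is then assumed to vary like the other group. Detected probes that were higher with ATRA numbered 5 to 6 with 1 array left out, and 4 of 8 kept at a detection p of 0.01.

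The replicate numbers were not shown to pair the samples: deviations of same-numbered arrays from their group means had r = -0.003 across probes. With the replicate number as a block, 492 probes, 2 member probes (Bhlhe40, and Hes1 with adjusted p = 0.0294) and 3 context genes (Tle6, Csnk1e, and Tle4 with adjusted p = 0.0217) passed. Background correction, offset 50, series matrix values, robust eBayes, no second quantile step and other filters left the number of member probes past the threshold at 1. Per3 was not kept at a detection p of 0.01. Probes near the detection limit set the limits here: Per3, Nr1d1 and the 7 undetected probes allow no firm statement.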
